A study of Rattus norvegicus with 18 samples.

Results

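The comparison described here sets the liver of obese rats fed plantain at the high dose against the liver of obese control rats given water. It rests on 6 of the 18 RNA sequencing libraries of the study, 3 per group, and on the 11945 of 33657 genes that reached at least 1 FPKM (fragments relative to gene length and library total) in at least 3 of the 18 libraries. Of these genes, 10655 are protein coding, and the 21712 genes below the filter were not tested. All animals were male, the tissue was frozen liver, and the labels give an age of 18 weeks. The low-dose, medium-dose and high-dose plantain groups, the orlistat group (a lipase inhibitor, the positive control) and the obese control are labelled as obese. The normal control is labelled as healthy and was also given water. No source used here gives the amounts of plantain, the strain or the way obesity was brought about. Nor is it stated that each library stands for its own animal, so p-values measure only the spread between these libraries, and that spread may be partly technical.

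The liver makes and clears glucose, fatty acids, cholesterol and bile acids, secretes most plasma proteins, and breaks down amino acids and foreign compounds. A load of secretory proteins or of lipid can raise its endoplasmic reticulum chaperones, and in obesity it stores triglyceride in droplets coated with perilipins. Nuclear receptors and transcription factors such as PPARalpha, SREBP and the circadian clock proteins set the level of many of the enzymes involved.

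The libraries held 18.3, 20.6 and 16.6 M (mega) recovered reads at the high dose, against 19.2, 24.3 and 20.4 M in the obese control, within the range of 16.6 to 26.2 M over the series. The 13 hepatocyte markers tested summed to between 91582 and 91924 FPKM at the high dose and between 100489 and 102915 FPKM in the obese control, as for liver. The FPKM of all genes summed to 534344 ± 1465 at the high dose and 604860 ± 4745 in the obese control (SD, n = 3 each). Sums of a list given here move with that total too. The authors' scaling total was 1.028 ± 0.003 times the recovered reads at the high dose and 0.974 ± 0.005 times in the obese control (SD, n = 3 each), so the scaling moves with the group. Reads on mitochondrial transcripts also moved with the group, as given below.

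At the high dose 6199 genes passed the test (limma on log2(FPKM + 1), Benjamini-Hochberg adjusted p below 0.05), which is 51.9% of the genes tested. Of these, 3181 rose (26.6% of the genes tested) and 3018 fell (25.3%), and for 57.8% of the genes tested no high-dose value fell among those of the obese control. Most changes were small. Of the genes that passed, 4800 differed by less than 0.5 on the log2 scale, 73 rose by more than 1 and 143 fell by more than 1. The median difference over all genes tested was -0.00, with a median standard error of 0.069. The split between rises and falls depended on the scaling. On TPM, which makes each library sum to the same total, 5176 genes rose and 1476 fell and the median of all genes stood at 0.15. On each library's own total of recovered reads 4004 rose and 2211 fell. Changes close to 0 are therefore given as values here, and every log2 difference below is high dose minus obese control of log2(FPKM + 1), ± its standard error, unless another pair of groups is named.

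The gene lists split widely around these shares. All 13 tested mitochondrially encoded transcripts fell, as did 18 of 25 endoplasmic reticulum genes, 12 of 16 secreted hepatokines and 10 of 14 Kupffer cell and macrophage markers. Of the liver sinusoidal endothelial markers, 11 of 13 rose and 0 fell. The lists of cholesterol synthesis (15 of 26), amino acid breakdown (16 of 29) and the circadian clock (10 of 18) had more rises than falls. Of the hepatocyte markers 3 of 13 rose and 6 fell, but on TPM 8 rose and 1 fell.

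**Figure D1:**
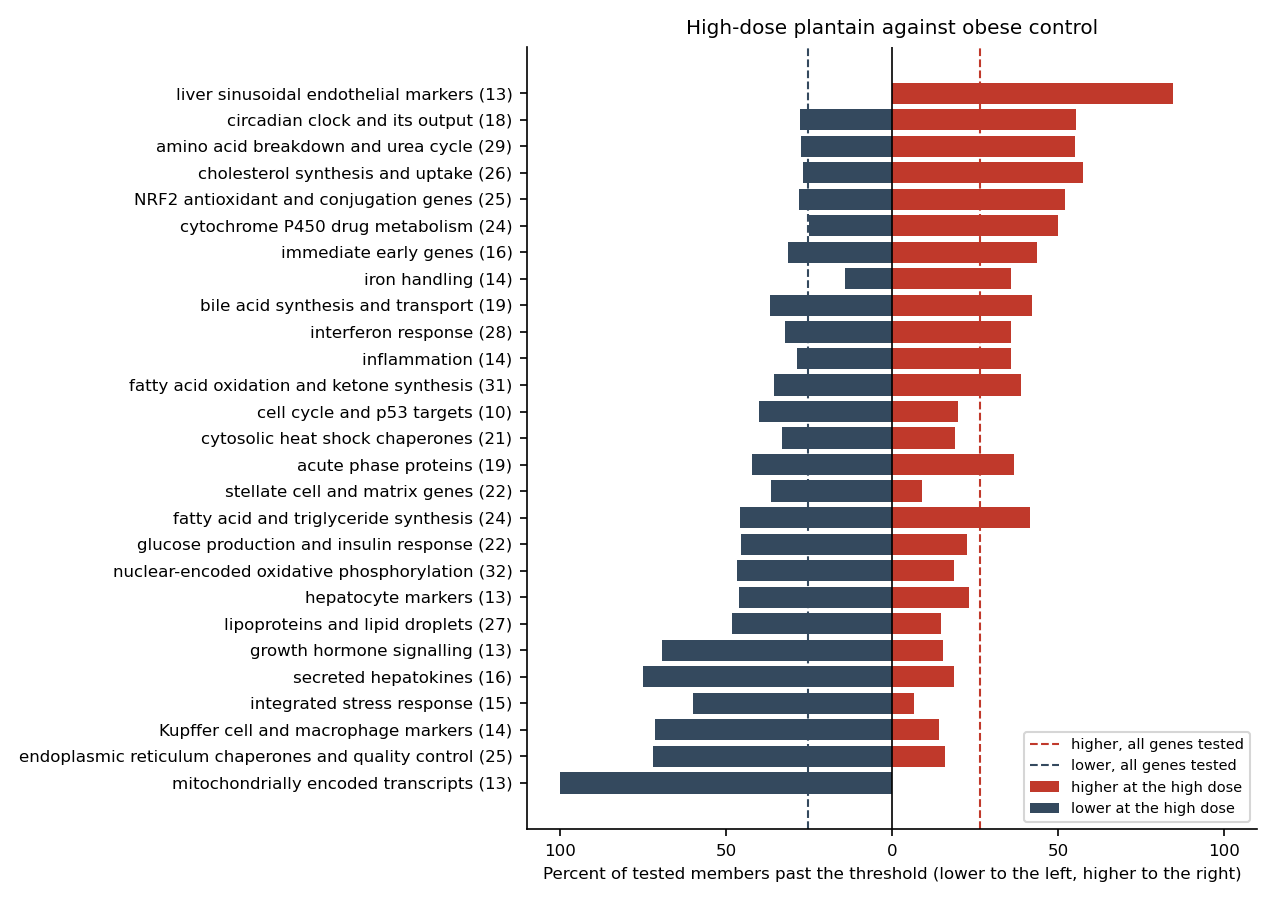
Percent of the tested members of each gene list that passed the test at the high dose, with falls to the left and rises to the right, and the number of tested members in brackets. The dashed lines mark the shares over all genes tested, 25.3% lower and 26.6% higher; the endothelial markers stand at the top with 0 falls and the mitochondrially encoded transcripts at the bottom with 0 rises.

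Among the largest rises was Nrg4 (ENSRNOG00000015149, chromosome 8, 59782974 to 59849490, minus strand in the file's coordinates, for which no source used here names a build), the gene of neuregulin 4, a secreted ligand of the ERBB4 receptor. It had 8.12, 8.72 and 8.03 FPKM at the high dose, against 1.02, 1.21 and 0.794 FPKM in the obese control. All high-dose libraries lay far above all obese control libraries, a difference of 2.21 ± 0.11 (limma adjusted p = 2.57e-10). Acsm5 (ENSRNOG00000031211, chromosome 1, 189233141 to 189272172, plus strand) encodes a mitochondrial acyl-CoA synthetase of medium-chain acids. It had 74.5, 74.1 and 75.6 FPKM at the high dose, against 18.8, 18.6 and 18.6 FPKM in the obese control. The libraries of each group lay close together and the groups stood wide apart (1.95 ± 0.03, adjusted p = 1.68e-16). Inmt, an N-methyltransferase of indolethylamines, averaged 14.7 ± 1.64 FPKM at the high dose and 4.01 ± 0.545 FPKM in the obese control (SD, n = 3 each). The guanine deaminase Gda averaged 35.8 ± 1.99 FPKM at the high dose and 11.0 ± 1.16 FPKM in the obese control. Ces2e, a carboxylesterase, rose by 1.60 ± 0.07 and the acetyltransferase family gene Nat8f3 by 1.55 ± 0.11, and both stood below 1 FPKM in each obese control library.

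The largest fall with tight libraries was that of Akr1c2 (ENSRNOG00000029844, chromosome 17, 69388335 to 69404341, minus strand), an aldo-keto reductase. It had 17.4, 15.8 and 14.5 FPKM at the high dose, against 101, 105 and 102 FPKM in the obese control. No high-dose library came near the obese control (-2.62 ± 0.07, adjusted p = 1.63e-13). Prlr (ENSRNOG00000057557, chromosome 2, 60131776 to 60325692, plus strand), the prolactin receptor, had 3.10, 3.15 and 3.44 FPKM at the high dose, against 17.4, 17.0 and 16.9 FPKM in the obese control (-2.10 ± 0.06, adjusted p = 8.19e-13). Rprm, a target of p53, averaged 0.763 ± 0.0598 FPKM at the high dose and 5.55 ± 0.671 FPKM in the obese control. The clock gene Arntl, described below, was also among the 8 largest falls.

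**Figure D2:**
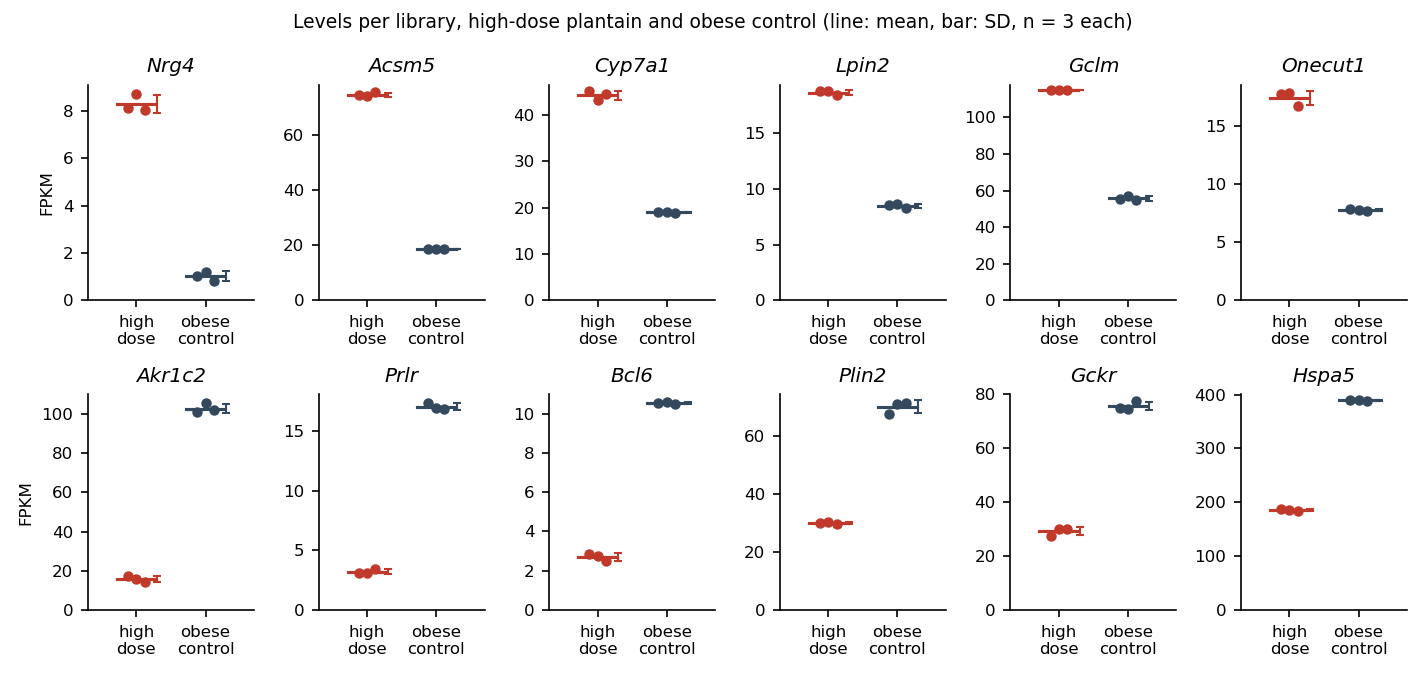
FPKM of 12 genes in each library, high dose on the left and obese control on the right of each panel, with the mean as a line and the SD as a bar (n = 3 each). The top row holds genes that rose at the high dose, such as Nrg4 with a mean of 8.29 against 1.01 FPKM. The bottom row holds genes that fell, such as Hspa5 with 186 against 390 FPKM. The libraries of the groups do not overlap in any panel, but the genes were chosen with these values known. The groups did not overlap for 57.8% of all genes tested.

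Some of the largest differences are uncertain. LOC103690108, a gene of the class I histocompatibility kind with close relatives in the genome, had 7.87, 7.26 and 9.44 FPKM at the high dose and is listed at 0 in all 3 obese control libraries, so no fold is given. Map2k3 differed by 1.82 ± 0.41 with libraries between 9.52 and 17.3 FPKM at the high dose and between 1.92 and 5.09 FPKM in the obese control. The file gives the cysteine desulfurase gene Nfs1 2 identifiers. ENSRNOG00000019736 had 1.12, 1.06 and 1.11 FPKM at the high dose, against 33.2, 18.3 and 11.4 FPKM in the obese control. ENSRNOG00000045686 had 0.318, 0.187 and 20.2 FPKM at the high dose, against 11.3, 0.211 and 13.9 FPKM in the obese control, so its levels jumped between libraries of 1 group. The ribosomal protein gene Rps6 ran from 2.64 to 21.1 FPKM at the high dose and from 50.9 to 73.6 FPKM in the obese control. Srm, the spermidine synthase, had 0.356, 0.118 and 0.0983 FPKM at the high dose, against 9.10, 0.426 and 19.1 FPKM in the obese control libraries, and its call was lost without the first of them (-2.17, adjusted p = 0.0706) or the third (-1.68, adjusted p = 0.109). LOC679739 lost its call without the third obese control library (-1.94, adjusted p = 0.0594). No source used here says how the authors' counting treated near-identical copies of these genes.

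Of 25 chaperone and quality control genes of the endoplasmic reticulum, where secreted proteins fold, 18 fell at the high dose and 4 rose. Hspa5 (ENSRNOG00000018294, chromosome 3, 13838304 to 13842762, plus strand) encodes BiP, the main chaperone of this compartment. It had 187, 186 and 184 FPKM at the high dose, against 390, 390 and 389 FPKM in the obese control. Its libraries varied by less than 2 FPKM (SD) within each group, and the groups differed by -1.06 ± 0.01 (adjusted p = 1.68e-16). Hyou1, a large chaperone and exchange factor of BiP, had 22.1, 22.0 and 21.1 FPKM at the high dose, against 66.8, 64.9 and 63.4 FPKM in the obese control (-1.54 ± 0.04). Manf, a secreted stress-induced factor, averaged 73.0 ± 2.03 FPKM at the high dose and 184 ± 5.997 FPKM in the obese control. Pdia4, a disulfide isomerase, averaged 97.7 ± 1.53 FPKM at the high dose and 168 ± 2.89 FPKM in the obese control. Of the sensors of unfolded protein, Ern1 fell by 0.36 on the log2 scale and Atf6 rose by 0.32. Eif2ak3, the gene of PERK, differed by -0.24 ± 0.08 (adjusted p = 0.0192), a call that was lost without the second or the third library of either group (-0.24 to -0.20, adjusted p = 0.0509 to 0.0831) and on TPM (-0.12, adjusted p = 0.318). Xbp1, whose spliced RNA encodes a factor that induces chaperones, had 189, 196 and 195 FPKM at the high dose, against 132, 132 and 127 FPKM in the obese control (0.57 ± 0.03). The FPKM of a gene do not show splicing, so the spliced and unspliced forms of Xbp1 are not separated here. The median of the 25 was -0.36, and on TPM 6 rose and 12 fell with a median of -0.22.

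Many chaperone genes carry the endoplasmic reticulum stress element, CCAAT, 9 bases of any kind, then CCACG, which the factors ATF6 and XBP1 are known to use with NF-Y. The element was searched on both strands in the RefSeq promoters of build GRCr8 (250 bases before to 50 after the gene start), where 19 of the 25 list members had an entry. It was found in 8 of those 19 promoters (42.11%) and in 21 of all 27457 promoters (0.07648%). The stretches around it are shown for 6 genes, chosen after their values were seen: Hspa5, Creld2, Hsp90b1 and Calr, which fell, and Xbp1 and Canx, which did not. Capitals mark the ends of the element, and on the opposite strand it reads CGTGG, 9 bases, then ATTGG. The stretches lie at chr3:38452953-38453011 on the plus strand (Hspa5), chr7:121789219-121789277 on the plus strand (Creld2), chr7:23012327-23012489 on the minus strand (Hsp90b1), chr19:40213117-40213173 on the plus strand (Calr), chr14:84604538-84604596 on the plus strand (Xbp1) and chr10:35158049-35158107 on the minus strand (Canx), each printed in the direction of its gene.
Hspa5: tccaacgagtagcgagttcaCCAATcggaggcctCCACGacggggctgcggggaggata
Creld2: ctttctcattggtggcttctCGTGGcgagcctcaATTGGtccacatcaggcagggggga
Hsp90b1: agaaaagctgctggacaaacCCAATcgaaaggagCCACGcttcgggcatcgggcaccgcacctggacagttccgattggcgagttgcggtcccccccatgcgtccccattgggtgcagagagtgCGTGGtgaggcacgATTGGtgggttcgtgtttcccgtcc
Calr: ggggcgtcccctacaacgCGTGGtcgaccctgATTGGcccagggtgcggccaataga
Xbp1: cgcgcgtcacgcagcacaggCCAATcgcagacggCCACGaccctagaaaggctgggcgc
Canx: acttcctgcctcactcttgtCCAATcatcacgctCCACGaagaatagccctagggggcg

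Hsp90b1 carries the element 2 times and fell by 0.62 on the log2 scale, and Calr, with 1 copy, fell by 0.53. Creld2 had 14.1, 13.3 and 15.0 FPKM at the high dose, against 52.7, 51.4 and 52.7 FPKM in the obese control (-1.82 ± 0.08), the lowest value of the list. Canx, the membrane-bound lectin chaperone, had between 99.4 and 101 FPKM at the high dose and between 97.0 and 98.3 FPKM in the obese control (0.04 ± 0.02, adjusted p = 0.1002). It passed as a rise on TPM (0.22, adjusted p = 2.54e-07) and as a fall with the trend over gene length removed (-0.06, adjusted p = 0.0298). Of the 8 genes with the element, 1 rose and 5 fell with a median of -0.57. Of the 11 with a promoter entry and no match, 2 rose and 8 fell with a median of -0.24. A match is a description of the sequence and does not show that a factor was bound.

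The integrated stress response, in which ATF4 and its partners induce amino acid and stress genes, had 1 rise and 9 falls among 15 members, with a median of -0.27 (-0.16 on TPM, with 3 rises and 6 falls). Atf5 had 259, 257 and 264 FPKM at the high dose, against 550, 552 and 542 FPKM in the obese control (-1.07 ± 0.02). Ddit3, the gene of CHOP, averaged 7.91 ± 0.252 FPKM at the high dose and 11.6 ± 0.480 FPKM in the obese control. Fgf21, a hormone made by stressed or fasted liver, had 9.68, 7.65 and 11.3 FPKM at the high dose, against 17.9, 18.3 and 20.9 FPKM in the obese control (-0.93 ± 0.11, adjusted p = 2.48e-06). Its libraries spread more than those of Atf5, but the groups did not overlap. Cebpb fell by 0.54 on the log2 scale and Sesn2 by 0.40. Atf5, Fgf21, Cebpb and Sesn2 are the 4 members with the smallest p. The 1 rise was by 0.30, and the highest value of the list, 0.33, did not pass the test.

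In the cytosol, 7 of 21 heat shock chaperones fell and 4 rose, with a median of -0.04, whereas on TPM 9 rose and 7 fell with a median of 0.14. The 52.4% of members that passed on FPKM was close to the 51.9% of all genes tested. The 4 members with the smallest p are named next and all fell, while the rises reached 0.56. The constitutive chaperone Hspa8 averaged 140 ± 2.40 FPKM at the high dose and 222 ± 6.21 FPKM in the obese control. Its partner Hsph1 fell by 0.76, and the HSP90 cochaperones Stip1 and Fkbp4 fell by 0.63 and 0.60. The heat shock factor Hsf1 did not pass the test (-0.20 ± 0.08, adjusted p = 0.0576), but did so without the second (-0.27, adjusted p = 0.0213) or the third (-0.24, adjusted p = 0.0485) high-dose library or the first obese control library (-0.25, adjusted p = 0.0424).

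Transcripts of the mitochondrial genome, which encodes subunits of the respiratory chain, fell at the high dose for all 13 genes tested. COX1, a core subunit of cytochrome c oxidase, had 12176, 12149 and 12575 FPKM at the high dose, against 22694, 23301 and 21729 FPKM in the obese control (-0.88 ± 0.04, adjusted p = 1.72e-10). ND3, of complex I, had 730, 644 and 676 FPKM at the high dose, against 1842, 1826 and 1848 FPKM in the obese control (-1.43 ± 0.09). ND5 fell by 1.16 and ND4L by 1.13. The 13 differences ran from -1.45 to -0.70, with a median of -1.05 that was -0.89 on TPM, and no group overlapped for any of the 13. After quantile normalization, which sets the most abundant genes of all libraries to the same values, 12 of 13 fell and COX1 stood at a difference of 0. The transcripts took 4.59%, 4.62% and 4.70% of the reads at the high dose, against 8.09%, 8.38% and 7.86% in the obese control. This share did not overlap between the groups, at a two-sided exact permutation p = 0.1, the smallest that 3 against 3 libraries allow. Such a share can also move with RNA quality or the RNA selection of a library, whose part in the result was not tested.

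The nuclear-encoded genes of oxidative phosphorylation did not follow as a group. Of 32 members, 6 rose and 15 fell with a median of -0.08, which turned to 0.10 on TPM (14 rose, 9 fell). Sdha, of complex II, averaged 126 ± 2.84 FPKM at the high dose and 102 ± 1.91 FPKM in the obese control. Uqcrc2, of complex III, averaged 68.8 ± 0.346 FPKM at the high dose and 48.1 ± 1.41 FPKM in the obese control. Cox7b and Cox4i1, both of complex IV, fell by 0.37 and 0.31. Many of these genes are short, with 20 of 32 in the shortest of 5 length classes of the genes tested, and after a trend with gene length was removed 12 rose and 10 fell.

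**Figure D3:**
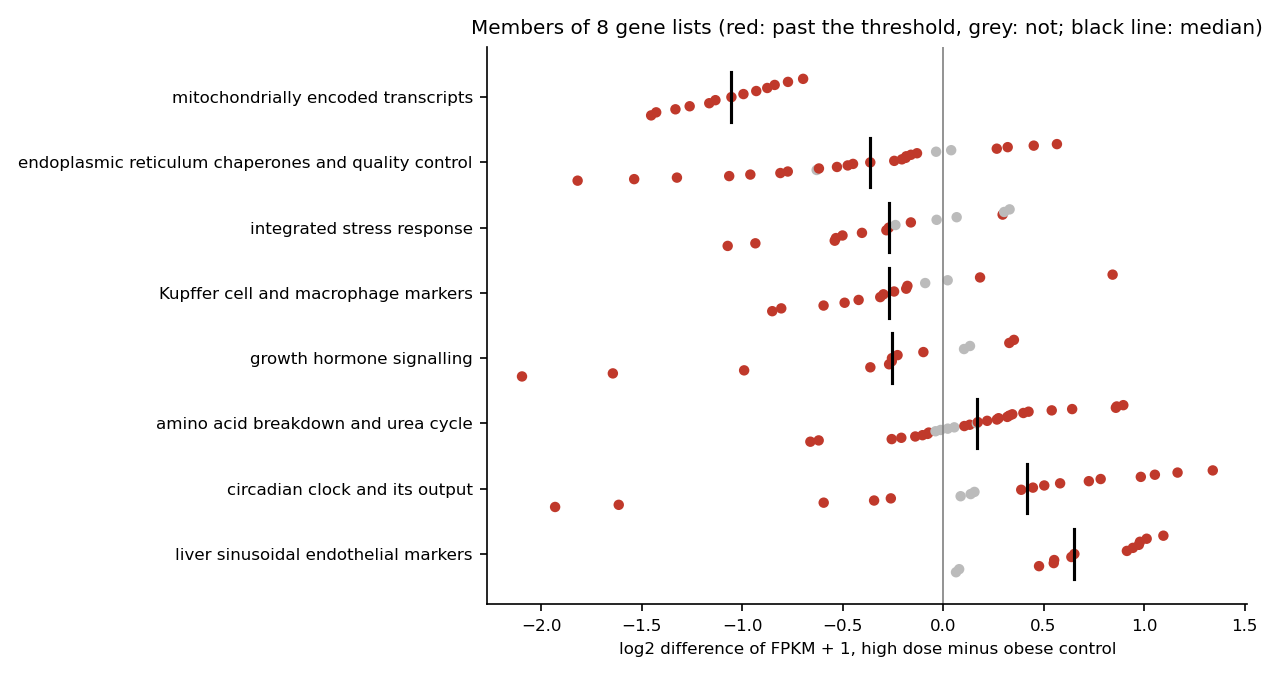
Log2 difference of each tested member of 8 gene lists, high dose minus obese control, in red where the gene passed the test and in grey where it did not, with the list's median as a black line. All 13 mitochondrially encoded transcripts lie between -1.45 and -0.70 and all 13 endothelial markers between 0.06 and 1.10, while the clock list reaches from -1.93 to 1.34.

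Genes of fatty acid and triglyceride synthesis moved both ways. Of 24 members, 10 rose and 11 fell with a median of -0.06, and on TPM 12 rose and 4 fell with a median of 0.10. Lpin2, a phosphatidate phosphatase of triglyceride synthesis, had 18.7, 18.8 and 18.4 FPKM at the high dose, against 8.51, 8.64 and 8.25 FPKM in the obese control (1.05 ± 0.03, adjusted p = 2.15e-13). Thrsp, a lipogenic regulator, averaged 356 ± 4.83 FPKM at the high dose and 248 ± 0.808 FPKM in the obese control. Scd, the stearoyl-CoA desaturase, had 170, 167 and 175 FPKM at the high dose, against 243, 244 and 245 FPKM in the obese control (-0.51 ± 0.02). The elongase Elovl5 fell by 0.57 on the log2 scale. Srebf1, the gene of the main lipogenic SREBP, rose by 0.20. Its target Fasn, the fatty acid synthase, had 5.19, 5.66 and 5.40 FPKM at the high dose and 5.49, 5.05 and 5.55 FPKM in the obese control. The groups overlapped, with no detectable difference on FPKM (0.01 ± 0.05, adjusted p = 0.863). That value changed sign in 4 of the alternatives tried, including without the second library of either group. Fasn passed as a rise on TPM (0.18, adjusted p = 0.0318) and as a fall with the trend over gene length removed (-0.12, adjusted p = 0.0402).

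The split of the lipid droplet and lipoprotein genes turned with the scaling, with 4 rises and 13 falls among 27 on FPKM (median -0.12), 14 rises and 5 falls on TPM (median 0.06) and 8 rises and 5 falls after quantile normalization. Plin2, the perilipin that coats liver lipid droplets, had 30.2, 30.5 and 29.9 FPKM at the high dose, against 67.6, 71.3 and 71.6 FPKM in the obese control. The high-dose libraries lay within 1 FPKM of each other and far below the obese control (-1.19 ± 0.04, adjusted p = 8.26e-13). Of the apolipoproteins, Apoc3 averaged 4914 ± 27.8 FPKM at the high dose and 6533 ± 35.3 FPKM in the obese control, and Apom fell by 0.40 on the log2 scale. Mttp, which loads lipid onto apolipoprotein B, rose by 0.22.

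Fatty acid oxidation and ketone synthesis had 12 rises and 11 falls among 31 members (median 0.01, and 0.19 on TPM with 20 rises and 5 falls). Cpt1a, which admits long-chain fatty acids to mitochondria, had 132, 132 and 133 FPKM at the high dose, against 78.6, 77.2 and 79.1 FPKM in the obese control (0.75 ± 0.02, adjusted p = 2.74e-13). Ppara, the receptor that induces these genes, averaged 26.1 ± 1.90 FPKM at the high dose and 16.01 ± 0.679 FPKM in the obese control. The peroxisomal enzyme Ehhadh rose by 0.61. Crot, the peroxisomal carnitine octanoyltransferase, went the other way, with 68.2 ± 2.12 FPKM at the high dose and 136 ± 2.30 FPKM in the obese control (-0.98 ± 0.03). The coactivator Ppargc1a rose by 0.45, at low levels of 0.916 ± 0.131 FPKM at the high dose and 0.404 ± 0.0744 FPKM in the obese control.

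Of the cholesterol synthesis and uptake genes, 15 of 26 rose and 7 fell, with a median of 0.15 (0.32 on TPM). The squalene synthase Fdft1 averaged 28.5 ± 1.14 FPKM at the high dose and 18.1 ± 0.271 FPKM in the obese control. The carrier Stard4 rose by 0.79 and the factor gene Srebf2 by 0.22. Srebf2 lost its call with the trend over gene length removed (0.12, adjusted p = 0.0556). With that trend removed 11 of the 26 genes rose and 8 fell (median 0.11). Insig2, which holds SREBP in the endoplasmic reticulum, had 89.7, 88.1 and 88.6 FPKM at the high dose, against 210, 206 and 202 FPKM in the obese control (-1.20 ± 0.03), the lowest value of the list.

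Cyp7a1 (ENSRNOG00000009488, chromosome 5, 19358734 to 19368431, minus strand), which sets the rate of bile acid synthesis, had 45.1, 43.2 and 44.5 FPKM at the high dose, against 19.0, 19.1 and 18.8 FPKM in the obese control. The groups stood wide apart (1.18 ± 0.03, adjusted p = 2.54e-13). Downstream in the pathway, Akr1d1 averaged 697 ± 3.44 FPKM at the high dose and 447 ± 4.27 FPKM in the obese control, and Slc27a5, which activates bile acids with coenzyme A, rose by 0.35. Abcg5, which exports sterols into bile, rose by 0.92. Nr0b2, the gene of SHP, a repressor of Cyp7a1, had 27.9, 26.8 and 32.6 FPKM at the high dose, against 37.9, 38.8 and 39.0 FPKM in the obese control (-0.40 ± 0.06). The whole list had 8 rises and 7 falls among 19 on FPKM (median 0.05), 14 rises and 2 falls on TPM (median 0.23), and 11 rises and 5 falls both after quantile normalization and on own totals.

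Glucose genes had 5 rises and 10 falls among 22 on FPKM (median -0.06), but 11 rises and 5 falls on TPM (median 0.10) and 8 rises and 7 falls on own totals. Gckr, a regulatory protein of liver glucose use, had 27.5, 30.1 and 30.1 FPKM at the high dose, against 74.8, 74.7 and 77.6 FPKM in the obese control (-1.34 ± 0.04). The groups did not overlap. G6pc, the glucose-6-phosphatase that releases glucose, averaged 47.8 ± 0.611 FPKM at the high dose and 85.8 ± 2.59 FPKM in the obese control. The transporter gene Slc2a2 rose, at 178 ± 2.98 FPKM at the high dose and 106 ± 2.48 FPKM in the obese control.

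Amino acid breakdown and the urea cycle had 16 rises and 8 falls among 29 members (median 0.17, and 0.34 on TPM). Sds, the serine dehydratase, had 160, 157 and 163 FPKM at the high dose, against 84.8, 83.0 and 88.5 FPKM in the obese control (0.90 ± 0.02). Cps1, which commits ammonia to the urea cycle, averaged 806 ± 6.22 FPKM at the high dose and 554 ± 6.90 FPKM in the obese control. The methionine adenosyltransferase Mat1a rose by 0.40.

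Drug metabolism showed 12 rises and 6 falls among 24 genes, with a median of 0.09 (0.27 on TPM, with 17 rises and 2 falls). Por, which passes electrons to all microsomal cytochromes P450, averaged 203 ± 2.14 FPKM at the high dose and 108 ± 1.29 FPKM in the obese control (0.90 ± 0.03). Cyp3a18 rose by 0.88 and Cyp1a2 by 0.43. Cyp2c7 fell, with 1281 ± 53.9 FPKM at the high dose and 2041 ± 26.97 FPKM in the obese control. Of the NRF2 list, 13 of 25 rose and 7 fell, with a median of 0.12 (0.30 on TPM, with 18 rises and 4 falls). The subunits of the enzyme that starts glutathione synthesis rose together, Gclm with 115 FPKM in each high-dose library, against 55.1, 57.1 and 54.9 FPKM in the obese control (1.03 ± 0.02), and Gclc by 0.42. Nfe2l2, which encodes NRF2, rose by 0.19. Gpx1, a selenium-dependent peroxidase, averaged 995 ± 12.7 FPKM at the high dose and 1617 ± 29.9 FPKM in the obese control.

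Genes of the circadian clock moved both ways. Arntl (ENSRNOG00000014448, chromosome 1, 178039063 to 178137465, plus strand), the gene of the activator BMAL1, had 0.824, 0.902 and 0.810 FPKM at the high dose, against 6.71, 5.78 and 5.67 FPKM in the obese control (-1.93 ± 0.08, adjusted p = 2.23e-11). Its partner Clock fell by 0.34 on the log2 scale. Per3, of the repressor arm, had 6.96, 7.72 and 7.37 FPKM at the high dose, against 2.22, 2.34 and 2.31 FPKM in the obese control (1.34 ± 0.05). Of the output factors that bind D-box sites, Dbp averaged 99.6 ± 0.811 FPKM at the high dose and 49.9 ± 1.28 FPKM in the obese control, and Tef rose by 0.73, while Nfil3, which opposes them at such sites, fell by 0.26 (-0.09 on TPM, adjusted p = 0.0611). Of the REV-ERB repressors, Nr1d1 fell by 0.59 and Nr1d2 rose by 0.45. Per1 differed by 0.09 ± 0.04 and did not pass the test (adjusted p = 0.115), though it did on TPM (0.26, adjusted p = 0.000523). In all 10 of 18 rose and 5 fell, with a median of 0.42. No source used here gives the hour at which liver was taken, so a difference in sampling time between the groups and a difference in clock level cannot be told apart.

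Growth hormone signalling in liver runs from the receptor through STAT5 to IGF1 and to feedback inhibitors. Ghr, the receptor, averaged 200.4 ± 0.786 FPKM at the high dose and 159 ± 3.33 FPKM in the obese control, while Stat5b fell by 0.26 on the log2 scale (-0.10 on TPM, adjusted p = 0.184). The feedback genes split. Cish had 12.1, 11.8 and 13.1 FPKM at the high dose, against 9.91, 8.85 and 9.64 FPKM in the obese control (0.35 ± 0.05). Socs2 had 23.0, 19.3 and 20.6 FPKM at the high dose, against 25.5, 24.7 and 25.3 FPKM in the obese control. Its call (-0.25 ± 0.07, adjusted p = 0.00936) was lost without the second high-dose library (-0.20, adjusted p = 0.0515) and on TPM (-0.09, adjusted p = 0.371). The repressor Bcl6 had 2.87, 2.73 and 2.48 FPKM at the high dose, against 10.5, 10.6 and 10.5 FPKM in the obese control (-1.64 ± 0.05). Cux2, a transcription factor known for its female bias in rodent liver, averaged 0.511 ± 0.137 FPKM at the high dose and 1.99 ± 0.0746 FPKM in the obese control. Over the list 2 of 13 rose and 9 fell, with a median of -0.25, and on TPM 5 rose and 5 fell.

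Among secreted hepatokines 3 of 16 rose and 12 fell, with a median of -0.27 (-0.09 on TPM, with 6 rises and 8 falls). Angptl4, an inhibitor of lipoprotein lipase, had 34.1, 34.3 and 33.8 FPKM at the high dose, against 62.2, 62.1 and 57.7 FPKM in the obese control (-0.81 ± 0.04). Inhbc, of the activin family, and the fetuin Fetub fell by 0.62 and 0.49. Selenop, the selenium transport protein, rose, with 5004 ± 42.5 FPKM at the high dose and 3388 ± 125 FPKM in the obese control. Fgf21 and Nrg4, given above, belong to the same list and moved in opposite directions.

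Of 13 markers of the endothelial cells that line the liver sinusoids, 11 rose at the high dose and 0 fell. The scavenger receptor gene Stab2 (ENSRNOG00000038948, chromosome 7, 27369853 to 27552078, minus strand) had 4.79, 4.80 and 4.74 FPKM at the high dose, against 1.80, 1.63 and 1.67 FPKM in the obese control (1.10 ± 0.04, adjusted p = 6.19e-12). Lyve1, a hyaluronan receptor, averaged 22.1 ± 0.475 FPKM at the high dose and 10.7 ± 0.217 FPKM in the obese control, and the VEGF receptor gene Kdr averaged 13.3 ± 0.533 FPKM at the high dose and 6.29 ± 0.318 FPKM in the obese control. Fcgr2b, an Fc receptor of these cells, rose by 0.94. The summed level of the list ran from 174 to 180.1 FPKM at the high dose and from 107 to 109.7 FPKM in the obese control. The median of the 13 markers was 0.65, and with the trend over gene length removed it was 0.56 with 12 rises and 0 falls; 6 of the 13 belong to the longest of 5 length classes. In bulk tissue, more cells of a type and more RNA per cell cannot be told apart.

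Kupffer cells, the resident macrophages of the sinusoids, went the other way for most markers, with 2 rises and 10 falls among 14 and a median of -0.27. On TPM 3 rose and 6 fell, with a median of -0.10. Cd5l, a scavenger protein of tissue macrophages, had 14.4, 16.04 and 15.1 FPKM at the high dose, against 27.01, 29.6 and 28.01 FPKM in the obese control (-0.85 ± 0.04). The scavenger receptors Marco and Cd163 fell by 0.81 and 0.60. Clec4f, a lectin restricted to Kupffer cells, overlapped between the groups, at 58.8 ± 1.38 FPKM at the high dose and 57.9 ± 1.68 FPKM in the obese control (0.02 ± 0.04). It passed as a rise on TPM (0.20, adjusted p = 0.000667) and after quantile normalization (0.12, adjusted p = 0.0057). It also passed as a rise on own totals (0.10, adjusted p = 0.0426) and with voom (0.10, adjusted p = 0.0346). Mrc1, the mannose receptor that sinusoidal endothelium also carries, rose by 0.84. The summed level of the macrophage list ran from 310.8 to 315.8 FPKM at the high dose and from 352 to 363 FPKM in the obese control. The FPKM of all genes also summed to less at the high dose (mean 534344, against 604860 in the obese control). The part of that lower total in the lower list sum was not tested. On own totals 3 of the 14 markers rose and 8 fell (median -0.20). After quantile normalization 3 rose and 9 fell (median -0.23).

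Stellate cell and matrix genes had 2 rises and 8 falls among 22 on FPKM (median -0.05). On TPM there were 7 rises and 3 falls (median 0.10), and on own totals 3 rises and 4 falls. The 45.5% of members that passed on FPKM was below the 51.9% of all genes tested. Lox and Pdgfrb had the lowest values of the list. The next fall was by 0.31, and the rises reached 0.27. Lox, which crosslinks collagen, had 2.24, 2.31 and 2.16 FPKM at the high dose, against 10.3, 9.76 and 10.1 FPKM in the obese control (-1.77 ± 0.06, adjusted p = 7.21e-12). Pdgfrb averaged 1.69 ± 0.187 FPKM at the high dose and 3.01 ± 0.0449 FPKM in the obese control. Col1a1, the main fibrillar collagen chain, was low in both groups, at 1.79 ± 0.0688 FPKM at the high dose and 1.56 ± 0.111 FPKM in the obese control, and did not pass the test (0.12 ± 0.06, adjusted p = 0.117), though it did on TPM (0.28, adjusted p = 0.00757). Red blood cell markers, which move with blood left in the tissue, fell for 5 of 8 genes (2 of 8 on TPM), and their sum ran from 1054 to 1289.6 FPKM at the high dose and from 1383 to 1666 FPKM in the obese control. Of 8 lymphocyte markers 0 rose and 1 fell, and of 2 neutrophil markers tested neither passed.

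Of 8 bile duct markers 6 stayed below 1 FPKM in all 6 libraries, Krt19 and Krt7 among them, while Epcam rose by 0.35 and Tff3 fell by 1.41 on the log2 scale. The list summed to between 10.7 and 12.2 FPKM at the high dose and between 12.6 and 15.3 FPKM in the obese control. Of 8 exocrine pancreas markers 7 stayed below 1 FPKM, Prss1, Prss2 and Pnlip being listed at 0, and Cela1 fell by 0.48, with list sums between 8.39 and 9.04 FPKM at the high dose and between 12.8 and 12.9 FPKM in the obese control. Of 6 fat cell markers Lep is listed at 0 and Cfd rose by 0.20, a call that was lost without the second or the third high-dose library or the first or the second obese control library (0.16 to 0.18, adjusted p = 0.0711 to 0.0974). The sums of this list were between 24.6 and 30.2 FPKM at the high dose and between 23.5 and 24.2 FPKM in the obese control. The part of a change in cell content in the results for hepatocyte genes was not tested.

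Acute phase proteins (7 of 19 rose, 8 fell, but 13 rose and 1 fell on TPM), inflammation genes (5 of 14 rose, 4 fell) and interferon response genes (10 of 28 rose, 9 fell) had medians between -0.04 and 0.04, which were 0.14 to 0.18 on TPM. The acute phase median was 0.14 on TPM, 0.19 after quantile scaling and 0.04 scaled to each library's own total, so its sign turns with the scaling, and with the gene-length trend removed the inflammation and interferon medians were -0.03 and -0.0096. Ceruloplasmin, Cp, averaged 768 ± 3.56 FPKM at the high dose and 577 ± 9.06 FPKM in the obese control. The chemokine Cxcl1 averaged 3.29 ± 0.515 FPKM at the high dose and 6.15 ± 0.354 FPKM in the obese control. The immunoproteasome subunit Psmb9 fell by 0.71, and Stat2 rose by 0.34. In iron handling 5 of 14 rose and 2 fell (median 0.06), whereas on TPM 12 rose and 2 fell (median 0.23). The 50% of members that passed on FPKM was close to the 51.9% of all genes tested. The falls on FPKM were those of the ferritin light chain Ftl1, with 1854 ± 15.5 FPKM at the high dose and 3054 ± 74.2 FPKM in the obese control, and of Hjv, the coreceptor that induces hepcidin, by 0.75. Of the cell cycle and p53 list 2 of 10 rose and 4 fell (median -0.03), whereas on TPM 5 rose and 3 fell (median 0.14). On FPKM 60% of its members passed, against 51.9% of all genes tested. The 2 lowest members are named next, while the rises reached 0.30. Cdkn1a, the p21 inhibitor, had 10.02, 10.2 and 9.79 FPKM at the high dose, against 18.2, 17.4 and 17.3 FPKM in the obese control, and the stress sensor Gadd45g averaged 41.8 ± 0.591 FPKM at the high dose and 77.3 ± 2.34 FPKM in the obese control. Of 16 immediate early genes, which respond to handling of tissue, 7 rose and 5 fell. Fos averaged 4.69 ± 0.295 FPKM at the high dose and 2.84 ± 0.269 FPKM in the obese control, and Ier2 fell by 0.56.

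The high dose was next set directly against the mean of the low and medium doses, in the same fit. Of the genes tested, 3354 differed (28.1%), 1721 higher (14.4%) and 1633 lower (13.7%) at the high dose, and on TPM 3801 were higher and 706 lower. Acsm5 was higher by 1.43 ± 0.02, with means of 39.5 ± 1.18, 18.6 ± 0.103 and 74.8 ± 0.758 FPKM at the low, medium and high dose (SD, n = 3 each), so its level did not follow the order of the doses. Onecut1, a liver transcription factor also called HNF6, averaged 7.81 FPKM in the obese control and 8.77, 6.31 and 17.5 FPKM at the low, medium and high dose (1.13 ± 0.07). Cish averaged 6.46, 3.69 and 12.4 FPKM (1.18 ± 0.05) and Socs2 13.9, 7.002 and 21.0 FPKM (1.01 ± 0.06). Both feedback genes were lower at the medium than at the low dose and highest of the 3 doses at the high one.

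Prlr averaged 19.9 ± 1.26, 4.23 ± 0.514 and 3.23 ± 0.184 FPKM at the low, medium and high dose, so that the difference of -1.30 ± 0.05 came mostly from the low dose. Ces2e averaged 0.400 FPKM in the obese control and 6.66, 11.3 and 3.25 FPKM over the same order of doses, with its peak at the medium dose (-1.19 ± 0.06). ND3 averaged 1467 ± 26.2, 1568 ± 316 and 683 ± 43.5 FPKM (-1.14 ± 0.08). The mitochondrially encoded list had a median of -0.76 with 0 of 13 higher and 13 lower, and its share of reads was 6.92% ± 0.33, 6.52% ± 0.37 and 4.64% ± 0.06 over the same order. Of the endothelial markers 11 of 13 were higher (median 0.25). Of the Kupffer and macrophage markers 1 was higher and 12 were lower (median -0.28). The endoplasmic reticulum list was closer to the other doses, with 6 higher and 10 lower and a median of -0.09. Hspa5 averaged 390 ± 0.770 FPKM in the obese control and 211 ± 1.94, 188 ± 3.34 and 186 ± 1.44 FPKM at the low, medium and high dose.

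**Figure D4:**
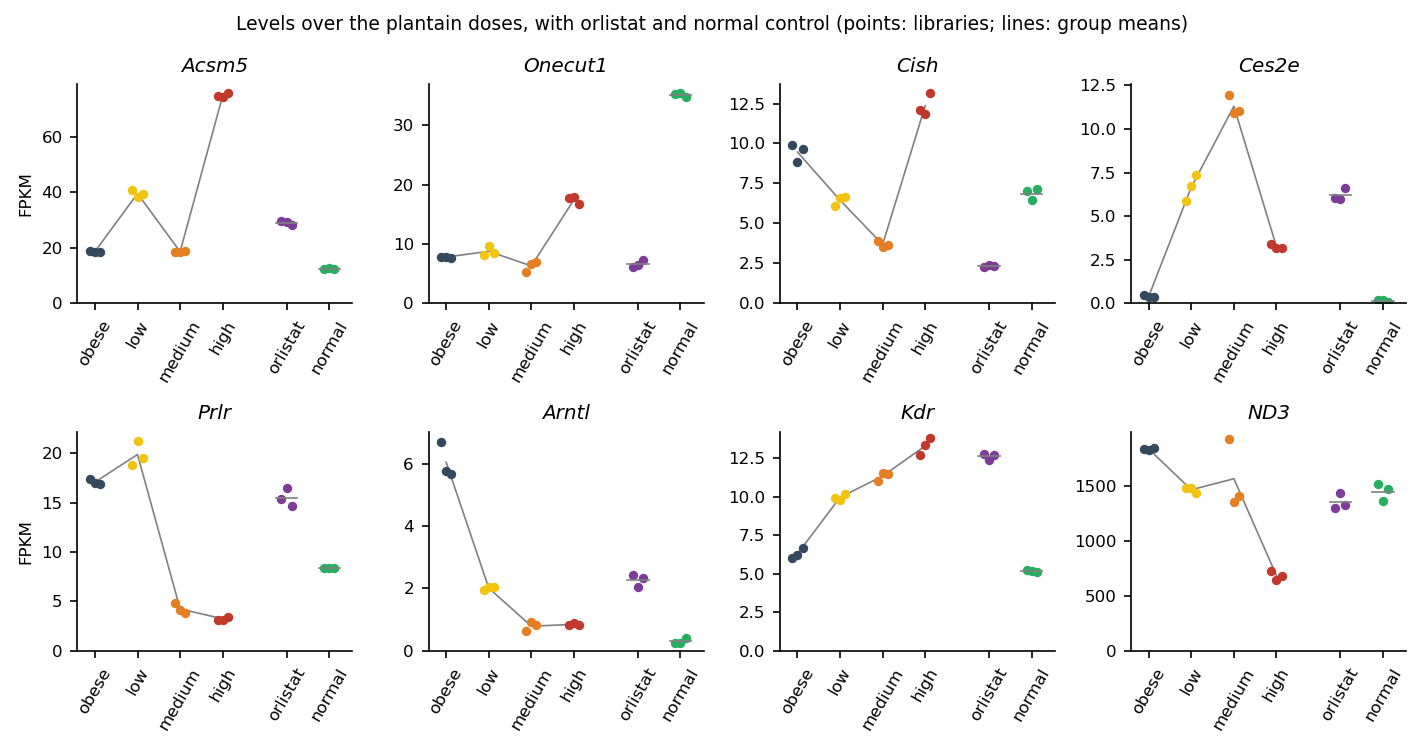
FPKM of 8 genes in each library, in the order obese control, low, medium and high dose, with orlistat and the normal control set apart on the right; lines join group means. Acsm5, Onecut1 and Cish are highest among the plantain doses at the high dose, Ces2e peaks at the medium dose with a mean of 11.3 FPKM, Arntl is low at the medium and the high dose, Kdr is higher at each dose than in the obese control, and ND3 is lowest at the high dose with a mean of 683 FPKM.

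Against orlistat, 1806 genes differed at the high dose (15.1% of those tested), 1009 higher and 797 lower. Nrg4 averaged 8.29 ± 0.375 FPKM at the high dose and 8.20 ± 0.994 FPKM with orlistat, a difference of 0.02 ± 0.11 that did not pass the test. Kdr was also close, at 13.3 FPKM at the high dose and 12.7 FPKM with orlistat (0.07 ± 0.04, adjusted p = 0.267). Scd averaged 170.5 ± 3.98 FPKM at the high dose and 83.5 ± 1.53 FPKM with orlistat (1.02 ± 0.02). Prlr and Bcl6 were lower at the high dose by -1.96 ± 0.06 and -1.92 ± 0.05. Of the fatty acid oxidation list 20 of 31 were higher at the high dose and 4 lower, and of the amino acid list 4 of 29 were higher and 18 lower. Of the Kupffer and macrophage markers 12 of 14 were lower.

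Against the normal control, 5069 genes differed (42.4% of those tested), 2332 higher and 2737 lower at the high dose, and on TPM 2864 were higher and 2043 lower. Fatty acid and triglyceride synthesis had 16 of 24 members lower at the high dose (median -1.03). Fasn averaged 5.42 ± 0.234 FPKM at the high dose and 39.4 ± 0.440 FPKM in the normal control, and Scd 170.5 FPKM at the high dose and 619 FPKM in the normal control. Of the cholesterol list 24 of 26 were lower. Endothelial markers were higher for 13 of 13 (median 0.94). Kupffer cell and macrophage markers were higher for 11 of 14 and lower for 0 (median 0.43), the opposite side to that against the obese control. Hspa5 stood below the normal control, at 186 FPKM at the high dose and 224 FPKM in the normal control, and 18 of 25 genes of its list were lower. Of the clock list 14 of 18 were lower and 2 higher at the high dose. Among the 2 was Arntl, with 0.845 ± 0.0494 FPKM at the high dose and 0.297 ± 0.0857 FPKM in the normal control. The obese control also differed from the normal control. It had 15 of 24 fatty acid synthesis genes lower (median -1.20), 23 of 26 cholesterol genes (-0.90) and 13 of 18 clock genes (-0.92). Higher in it were 10 of 13 endothelial markers (0.33) and 14 of 14 Kupffer and macrophage markers (0.70). The endoplasmic reticulum list had 14 of 25 higher and 7 lower (0.23).

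The differences from the obese control also moved with gene length. From the shortest to the longest of 5 equal length classes of the genes tested, the median difference was -0.17, -0.06, -0.00, 0.04 and 0.10, the percent of genes that rose was 9.79, 20.2, 26.6, 32.4 and 44.1, and the percent that fell was 32.8, 31.8, 24.9, 20.9 and 15.9. With the trend over length removed from each library, 2913 genes rose and 2912 fell. The endoplasmic reticulum, mitochondrially encoded, Kupffer and endothelial lists kept the sign of their medians (-0.44, -0.88, -0.20 and 0.56), and the nuclear oxidative phosphorylation list moved to 0.02. The part of RNA quality or library preparation in this trend was not tested.

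**Figure D5:**
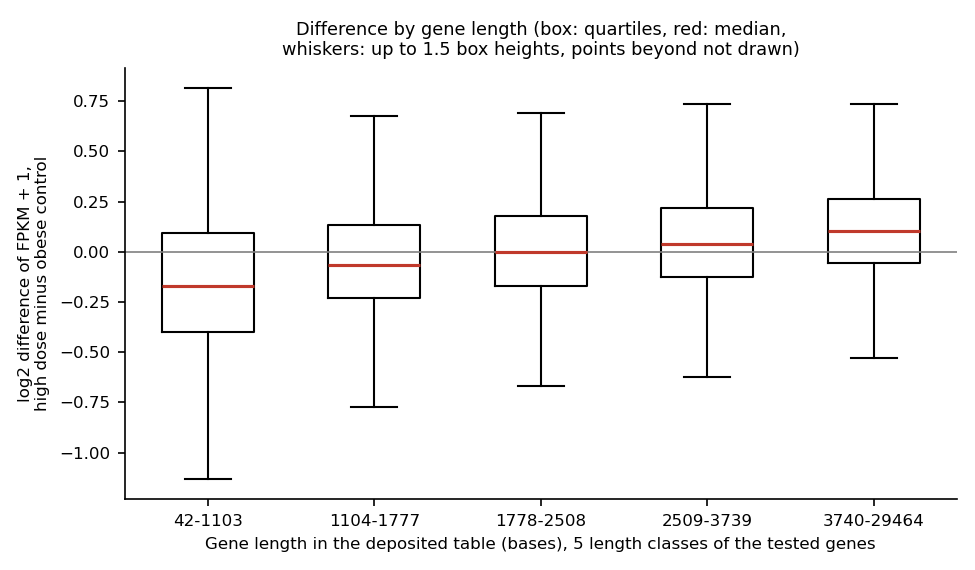
Log2 difference, high dose minus obese control, of the genes tested in 5 classes of gene length in the deposited table, with quartiles as boxes, medians as red lines and whiskers to the last point within 1.5 box heights. The median climbs from -0.17 in the shortest class (42 to 1103 bases) to 0.10 in the longest (3740 to 29464 bases), while every box spans 0.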

How the data were processed

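Liver RNA was sequenced from 1 µg per sample with an Illumina library kit, per the labels' protocols. Per the submitters' processing notes, the tools were CASAVA 1.7 and Bowtie 0.12.2 and the build was mm8, of the mouse. The deposited table carries rat Ensembl identifiers, so coordinates stand as in the file, with no build named. The authors deposited FPKM for 33657 genes in 18 libraries. FPKM times gene length gave whole reads for 100% of the values (tolerance 0.001), and from these the depth of each library was taken.

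Values were taken as log2(FPKM + 1) and fitted with limma 3.58.1 (R 4.3.3, mean-variance trend) over all 6 groups of 3 libraries, with Benjamini-Hochberg adjustment over all genes tested, two-sided. The pseudocount understates changes of low genes. The members and the 33 gene lists were chosen with earlier results of these data known. Named genes were the 8 largest changes each way with a mean of at least 2 FPKM and no overlap, up to 4 members per list by smallest p, the 5 largest differences each way from the lower doses, and defining members such as rate-limiting enzymes, of which those that add to the account are printed; some genes are not reported here. Promoters were taken from RefSeq (GRCr8) by symbol. The fit was run on simulated reads with known changes, which held neither the group-linked scaling nor the gene-length trend of these data. Replicates of a group differed by more than counting noise. Libraries with the same number did not deviate together, so they were not paired. Alternatives covered the scaling, filter, pseudocount, libraries in the fit, voom on the recovered reads, and each library left out in turn. The removal of a trend with gene length was added after the data were seen.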

Additional observations from a re-analysis of the deposited data

Results flagged for a closer look

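The direct test of the high dose against the mean of the low and medium doses called 3354 genes, and the 5 largest differences in each direction are listed here because that test passed for each of them. Higher at the high dose were Acsm5 by 1.43, Inmt by 1.24, Cish by 1.18, Onecut1 by 1.13 and Socs2 by 1.01 on the log2 scale. Lower at the high dose were Tff3, a secreted mucosal peptide (-1.39), Prlr (-1.30), Ces2e (-1.19), and the mitochondrially encoded ND3 (-1.14) and ND6 (-1.04). Tff3 had 1.03, 2.03 and 2.54 FPKM at the high dose, and averaged 6.17 ± 0.239 FPKM at the low dose and 6.47 ± 0.912 FPKM at the medium dose (SD, n = 3 each). For Prlr the medium dose, at 4.23 FPKM, was close to the high dose, at 3.23 FPKM. For Cish and Socs2 the high dose, at 12.4 and 21.0 FPKM, was closer to the obese control, at 9.47 and 25.2 FPKM, than to the medium dose, at 3.69 and 7.002 FPKM.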

How the results depend on the processing

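The counts of genes that passed stayed within 1.5 times their main value under every alternative run, for each of the 4 comparisons of the high dose. Against the obese control they ran from 5597 to 5701 with 1 library left out, and were 6184 with a pseudocount of 0.1, 6321 without the filter, 4421 at a filter of 5 FPKM, 5625 with only the groups compared and 6130 with voom. Against the low and medium doses they ran from 2669 to 3284 with 1 library left out. Of 2261 recomputed values of genes named in the text, 2210 kept their direction and their side of the threshold, 25 lost a call, 21 gained one and 5 changed sign. The sign changes were those of Fasn (-0.12 with the trend over gene length removed, -0.012 after quantile normalization, and between -0.023 and 0.038 with 1 library left out, below 0 without high-dose replicate 2 or obese control replicate 2) and of Canx (-0.061 with the length trend removed). The cause was not tested.

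With the replicate number as a block 6113 genes passed against the obese control (3142 higher, 2971 lower). Samples with the same number did not deviate together (correlations -0.025, 0.061 and 0.025), so the numbers are not a pairing. The block changed 1 call of a named gene, that of Hsf1 (-0.20, adjusted p = 0.0119). Depth limits genes near 1 FPKM most.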
